A study of Mus musculus with 8 samples.

Results

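A set of 10 transcription factors that shape the identity of lung endothelium were followed in sorted lung endothelial cells. They were the SOXF factors Sox7, Sox17 and Sox18, the forkhead factors Foxf1 and Foxo1, the zinc finger factor Gata2, the basic helix-loop-helix factors Tal1 and Lyl1, the homeobox factor Hhex and the T-box factor Tbx3. The members were chosen by symbol, with earlier results of these data known. All 10 were found among the 31610 genes of the count table and among the 18874 genes that passed the low-count filter. RNA came from endothelial cells sorted by flow cytometry from lungs of C57BL/6J mice that had been given an adeno-associated virus (AAV), a vector that carries a gene into tissue. There were 4 libraries for a control AAV and 4 for an nANGPTL4 AAV, described as independent biological replicates. Both groups therefore received a virus, and none of the libraries came from an untreated mouse. The sex and age of the mice, the time after injection, the promoter of the vector and the cells that took it up were not stated in the labels. The nANGPTL4 AAV libraries carry a title reading NT Treated, which the labels do not explain, so their group rests on the treatment field.

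SOXF proteins bind DNA through a high mobility group box, act in part redundantly and are best known in arterial and lymphatic vessels. FOXF1 is a forkhead factor needed to form the lung capillary bed, and FOXO1 is a forkhead factor that AKT kinases drive out of the nucleus and that restrains endothelial growth and metabolism. TAL1 and LYL1 are paralogs that pair with E proteins on E-box sequences and join GATA2 through LMO2 and LDB1, a module shared by endothelium and blood. HHEX takes part in early vessel and blood formation, and TBX3 is a T-box factor that acts mainly as a repressor.

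Total counts ran from 83183122 to 114337333 per library, so even the least abundant member, Lyl1, was counted 298 to 601 times. Foxf1, the most abundant, was counted 183587 to 271702 times. Endothelial markers were high in every library. Their summed level, over 16 genes led by Kdr, Cldn5 and Pecam1, was 27626 to 28645 CPM in control AAV and 26033 to 27333 CPM in nANGPTL4 AAV. CPM is a gene's count relative to the scaled library size, the usual unit that makes libraries of unequal depth comparable. Since these are bulk samples, fewer cells of one kind and less RNA per cell cannot be told apart.

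The sequences shown here are the stretches upstream of 3 start sites where the letters of a partner's motif were found, and they are referred to again beside the values. RefSeq windows on build GRCm38.p6 were given for 5 of the 10 members, Foxo1, Gata2, Tal1, Lyl1 and Hhex, and for Fendrr, the non-coding neighbour of Foxf1. The set of windows used here held none for Sox7, Sox17, Sox18, Foxf1 and Tbx3. In the 250 bases before each start, 5 motifs were searched on both strands, and none of these letter strings contains another. AGATAA stood for GATA factors (in 9.99% of 32851 such windows), CCGGAA for ETS factors (12.0%), CANNTG for E-boxes (66.2%), TGTTTA for forkhead factors (12.0%) and ACAATG for SOX factors (10.7%). Capitals mark every match. The Fendrr window is chr8:121083111-121083360 on the minus strand and lies in the 1275 bases between Fendrr and Foxf1. The Lyl1 window is chr8:84701207-84701456 and the Tal1 window chr4:115056176-115056425, both on the plus strand.
Fendrr: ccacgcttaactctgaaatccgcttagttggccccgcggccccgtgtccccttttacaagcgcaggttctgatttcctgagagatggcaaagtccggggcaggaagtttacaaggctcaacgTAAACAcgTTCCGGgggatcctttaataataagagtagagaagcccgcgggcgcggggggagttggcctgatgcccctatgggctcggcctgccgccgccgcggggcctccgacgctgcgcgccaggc
Lyl1: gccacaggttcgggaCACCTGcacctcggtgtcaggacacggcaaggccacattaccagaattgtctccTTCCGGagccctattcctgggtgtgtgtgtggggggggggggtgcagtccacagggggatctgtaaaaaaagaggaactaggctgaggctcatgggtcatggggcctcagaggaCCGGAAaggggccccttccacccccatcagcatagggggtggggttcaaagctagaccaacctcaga
Tal1: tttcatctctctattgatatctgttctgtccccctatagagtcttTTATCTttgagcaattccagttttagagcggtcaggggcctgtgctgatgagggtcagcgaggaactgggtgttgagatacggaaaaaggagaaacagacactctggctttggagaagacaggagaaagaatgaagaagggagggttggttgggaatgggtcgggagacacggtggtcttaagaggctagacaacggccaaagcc

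The Fendrr window held 1 forkhead match, 122 bases before the start, and 1 ETS match, 114 bases before it. A match to both was found in 0.828% of all windows. The Lyl1 window held 2 ETS matches and 1 E-box match, and 2.49% of all windows held at least 2 ETS matches. Among combinations of motifs, shares were taken only for those held by the Fendrr and Lyl1 windows. They are therefore no measure of how unusual these windows are. The window before the first Tal1 start held 1 GATA match. In Foxo1 there was 1 E-box match, and none of the 5 motifs was matched before the other Tal1 start, the Gata2 starts or the Hhex start. A match is only a string of letters in a window, and no binding was measured.

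Compared per kilobase of exon, the 10 factors spanned a wide range. Foxf1 stood first at a mean of 959 CPM per kilobase over the 8 libraries and Sox18 second at 595, and the ranges of these 2 did not overlap each other or any other member. Tbx3 at 216, Sox7 at 214 and Gata2 at 186 CPM per kilobase followed, and in this order each overlapped its neighbour. Sox17 came next at 117 CPM per kilobase, with no overlap on either side. Foxo1 at 24.0 and Hhex at 16.9 CPM per kilobase overlapped only at their edges, and Tal1 at 5.70 and Lyl1 at 2.34 CPM per kilobase were the lowest. Exon length is the union of all annotated exons of a gene, so a gene with long unused exons reads low on this scale. For example, the union is 4772 bases for Sox17 and 5398 for Gata2, and their longest transcripts have 3242 and 3571. Foxf1, Sox7 and Sox18 have 1 annotated transcript each. The order of Sox7, Gata2 and Sox17, and the SOXF shares given below, therefore depend on this choice of length. By CPM alone, 9 of the 10 factors had a mean log2 CPM over 3, and Foxf1 lay above 99.8% of the genes tested.

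None of the 10 factors was called different between the groups, where a call is an adjusted p under 0.05 over all genes tested (Benjamini-Hochberg method, edgeR quasi-likelihood fit), against 0.138% of all genes. At an unadjusted p under 0.05 there were 6 of 10, all lower in nANGPTL4 AAV (Foxf1, Sox7, Lyl1, Tbx3, Gata2 and Sox17), where 17.6% of all genes reached that p, 10.3% lower and 7.35% higher. Of the more abundant genes, those over a mean log2 CPM of 3, 18.2% reached it lower. Which factors reached it depended on the scaling. With library size only, Sox17, Gata2 and Tbx3 did not (edgeR unadjusted p = 0.0767, 0.0893 and 0.0945). Foxo1, higher in nANGPTL4 AAV, then did (edgeR unadjusted p = 0.0231). DESeq2 called 1 of 10, Foxf1, against 6.29% of genes called and 4.43% called lower, and limma-voom called 0, against 0.111%. Log2 fold changes (nANGPTL4 AAV minus control AAV) were negative for 8 factors and positive for Foxo1 and Hhex. Their median was -0.16, against 0.01 over all genes tested and -0.03 over genes with a mean log2 CPM over 3. Values were negative in 47.8% of all genes and in 62.5% of those more abundant genes. The plot of levels by library shows each value behind these differences.

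**Figure D1:**
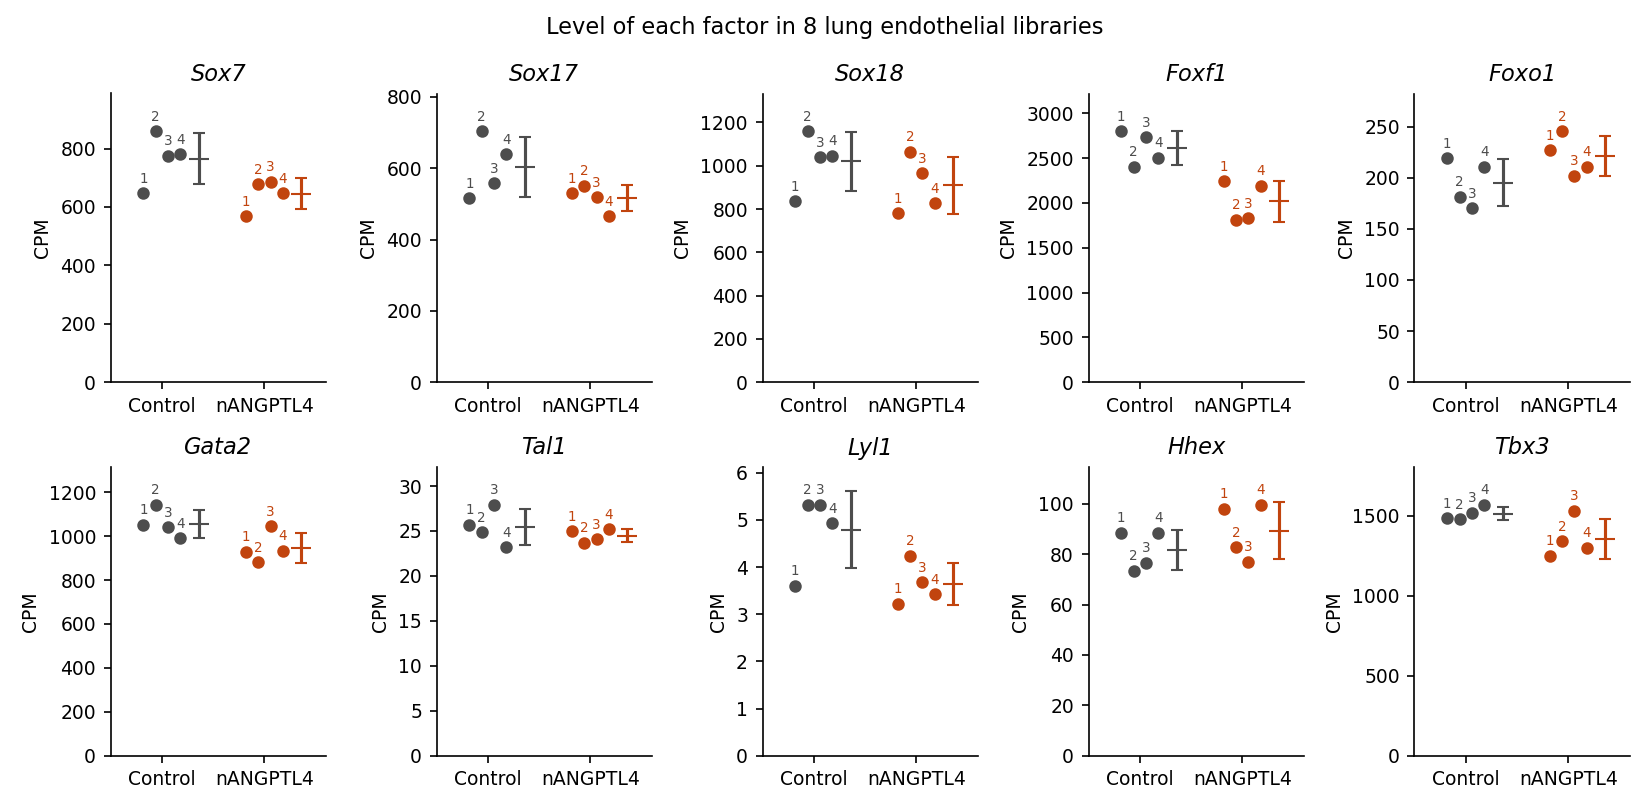
Level of each of the 10 factors in CPM (vertical axis, from 0) in 4 control AAV libraries (grey) and 4 nANGPTL4 AAV libraries (orange). Points are libraries labelled by replicate number, and the bar beside them is the mean with its SD (n = 4). Foxf1 is the only panel in which no orange point reaches a grey one.

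Foxf1 has 2 exons on the plus strand of chromosome 8 (mm10), from 121084386 to 121088144. Foxf1 was at 2800.8, 2404, 2732 and 2505 CPM in control AAV libraries 1 to 4 and at 2239.6, 1814, 1832 and 2193 CPM in nANGPTL4 AAV libraries 1 to 4. The lowest control library was above the highest nANGPTL4 library, a separation in this direction that 6.99% of all genes and 12.6% of the more abundant genes showed. The means were 2610.2 ± 187 and 2019.5 ± 228 CPM (SD, n = 4 each), and the log2 fold change was -0.37 (SE 0.08). The difference, -22.6% of the control mean, missed the threshold in edgeR (unadjusted p = 0.000904, adjusted p = 0.0756) and passed it in DESeq2 (adjusted p = 0.00210). Its adjusted p was between 0.00210 and 0.203 over 17 alternative fits. Foxf1 ranked 224 of 18874 genes by p.

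With the scaling of the main fit, the summed endothelial markers were also lower in each nANGPTL4 library than in each control library. The closest were control library 3 at 27626 CPM and nANGPTL4 library 2 at 27333 CPM, with scaling factors of 0.9942 and 1.023. This separation therefore depends on the scaling, and the median of these markers went from -0.05 to -0.0026 with library size only. Divided by the summed endothelial markers within each library, with members left out of the sum, Foxf1 still did not overlap between the groups. It differed by -0.32 on the log2 scale. Foxf1 is also a gene of lung mesenchyme. The 19 fibroblast and mural markers together reached 95.2 to 190 CPM in control AAV and 111 to 242 CPM in nANGPTL4 AAV, so the groups overlapped. The most abundant were Col3a1 at 30.5 and 34.8 CPM, Npnt at 20.7 and 26.9 CPM and Col1a2 at 14.3 and 16.8 CPM in the 2 groups, while Lum, Wt1, Cnn1 and Msln were each under 1 CPM. The part of such cells in the level of Foxf1 was not tested.

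Fendrr, a long non-coding RNA gene that starts back to back with Foxf1, differed in the other direction. Fendrr was at 497, 452, 488 and 461 CPM in control AAV libraries 1 to 4 and at 561, 504, 543 and 514 CPM in nANGPTL4 AAV libraries 1 to 4. Each nANGPTL4 library was above each control library, which 3.89% of all genes showed in this direction. The log2 fold change of Fendrr was 0.16 (SE 0.05, unadjusted p = 0.00955), and it was not called (edgeR adjusted p = 0.147).

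Within a library the level per kilobase of Foxf1 was 7.75, 7.32, 7.70 and 7.48 times that of Fendrr in control AAV and 5.49, 4.95, 4.64 and 5.87 times in nANGPTL4 AAV. Taking this ratio cancels the library size. Its mean was 7.56 ± 0.202 in control AAV and 5.24 ± 0.547 in nANGPTL4 AAV (SD, n = 4 each). The difference on the log2 scale was -0.54. The ratio was chosen after the values of both genes were seen. Since each gene already separated the groups, in opposite directions, the ratio had to separate them too, and it is given as a description with no test. Mthfsd, the gene on the far side of Foxf1, had a log2 fold change of 0.04 with an SE of 0.05 (edgeR adjusted p = 0.719). The upstream sequence of Fendrr printed above comes from the gap between this pair, which the counts do not cover.

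**Figure D2:**
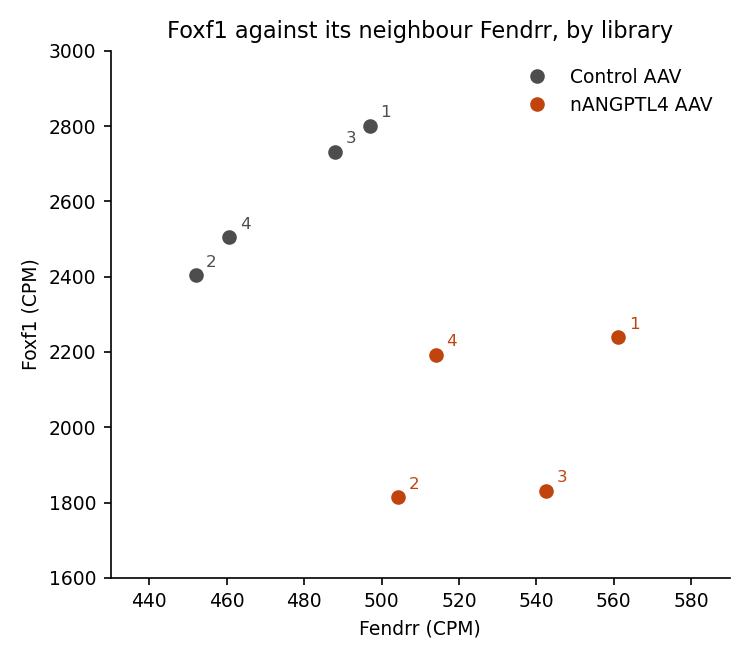
Foxf1 (vertical axis, CPM, not from 0) against Fendrr (horizontal axis, CPM, not from 0) in 8 libraries labelled by replicate number, control AAV in grey and nANGPTL4 AAV in orange. The groups occupy opposite corners, with Foxf1 at 2404 CPM or more and Fendrr at 497 CPM or less in every control library.

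The SOXF factors were each lower on average in nANGPTL4 AAV, with overlapping groups. Sox7, on chromosome 14 at 63943673 to 63950732, was at 647, 859.7, 775 and 780.45 CPM in control AAV libraries 1 to 4 and at 569, 678, 687 and 648 CPM in nANGPTL4 AAV libraries 1 to 4. Control AAV library 1 fell among the nANGPTL4 libraries, and the other 3 control libraries lay above all of them. The log2 fold change of Sox7 was -0.25 with an SE of 0.09 (edgeR adjusted p = 0.179).

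Sox17, a factor of arterial endothelium on chromosome 1 at 4490931 to 4497354 (minus strand), was at 516, 704, 558 and 639 CPM in control AAV and at 531, 551, 519 and 465 CPM in nANGPTL4 AAV. Control library 1 was again the one that overlapped. The log2 fold change of Sox17 was -0.23 with an SE of 0.09 (edgeR adjusted p = 0.232), and it was -0.14 without control library 2. An antisense transcript, Gm37587, overlaps 16.9% of the exonic bases of Sox17, at 3.10 and 3.22 CPM in the 2 groups.

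Sox18, on chromosome 2 at 181669836 to 181671640 (minus strand), was at 835, 1159.7, 1039.8 and 1045 CPM in control AAV and at 779, 1066, 966 and 826 CPM in nANGPTL4 AAV. The groups overlapped widely, and the log2 fold change was -0.17 with an SE of 0.11 (edgeR adjusted p = 0.480). With 1 library left out it lay between -0.24 and -0.09, nearest to 0 without control library 2 or nANGPTL4 library 1. Sox18 made up most of the SOXF transcripts in each library. Per kilobase its share was 63.7% ± 0.708 in control AAV and 64.7% ± 1.96 in nANGPTL4 AAV (SD, n = 4 each), with Sox7 at 23.5% ± 0.342 and 22.7% ± 1.42 and Sox17 at 12.8% ± 0.699 and 12.6% ± 1.31. The summed SOXF level moved between 765 and 1124 CPM per kilobase over the 8 libraries while these shares stayed within a few percentage points.

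Gata2, on chromosome 6 at 88193891 to 88207032, was at 1053, 1144, 1040.3 and 989.99 CPM in control AAV and at 929, 882, 1045 and 934 CPM in nANGPTL4 AAV. Only nANGPTL4 library 3 reached the control range. The log2 fold change was -0.16 with an SE of 0.06 (edgeR adjusted p = 0.228), and it was -0.11 without control library 2. Mast cells also express Gata2, and of the 9 mast cell and basophil markers in the table only Kit, which lung capillaries carry too, and Hdc were above 1 CPM.

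Tal1, on chromosome 4 at 115056426 to 115071755, was at 25.7, 24.9, 27.9 and 23.2 CPM in control AAV and at 25.0, 23.7, 24.1 and 25.2 CPM in nANGPTL4 AAV. Its groups lay on top of each other, and the log2 fold change was -0.05 with an SE of 0.06 (edgeR adjusted p = 0.694). Its paralog Lyl1, on chromosome 8 at 84701457 to 84704715, was at 3.60, 5.32, 5.32 and 4.93 CPM in control AAV and at 3.22, 4.24, 3.67 and 3.42 CPM in nANGPTL4 AAV. As for Sox7, control library 1 was inside the nANGPTL4 range and the other 3 were above it. The log2 fold change of Lyl1 was -0.40 with an SE of 0.14 (edgeR adjusted p = 0.180), the most negative of the 10 and on the fewest counts. The window printed for Tal1 held a GATA match and that for Lyl1 a pair of ETS matches, and of the ETS genes examined Fli1 was called lower and Erg was at 56.4 and 56.8 CPM in the 2 groups. Whether any GATA or ETS factor acts at these windows was not tested.

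Blood cells express Tal1, Lyl1 and Gata2 as well. Gata1 and Klf1, which mark erythroid cells, were each under 1 CPM, and summed erythroid and platelet markers overlapped at 54.2 to 99.3 CPM in control AAV and 84.7 to 99.1 CPM in nANGPTL4 AAV. The most abundant of them were Itga2b at 33.4 and 35.7 CPM, Ppbp at 19.9 and 22.1 CPM and Pf4 at 8.68 and 10.9 CPM. Of 14 tested, 12 were positive and 2 negative, with a median log2 fold change of 0.25 (0.12 without control library 1) and 0 called in edgeR. Myeloid markers summed to 20.4 to 42.5 and 32.7 to 53.0 CPM. Lymphocyte markers, 15 of 16 of which were under 1 CPM, were higher in each nANGPTL4 library, at 4.31 to 7.56 CPM against 2.98 to 3.64 CPM. Their part in the levels of these factors was not tested.

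Hhex and Foxo1 had positive values. Hhex, on chromosome 19 at 37434810 to 37440731, was at 88.4, 73.4, 76.6 and 88.5 CPM in control AAV and at 98.0, 82.8, 77.1 and 99.6 CPM in nANGPTL4 AAV. The ranges overlapped, and the log2 fold change was 0.13 with an SE of 0.09 (edgeR adjusted p = 0.506). It was 0.07 without nANGPTL4 library 4 and 0.20 without nANGPTL4 library 3.

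Foxo1, on chromosome 3 at 52268336 to 52353221, was at 219, 181, 170.04 and 211 CPM in control AAV and at 227, 246, 202 and 211 CPM in nANGPTL4 AAV. The ranges overlapped, and the log2 fold change was 0.18 with an SE of 0.09 (edgeR adjusted p = 0.312). Transcript level says nothing of how much FOXO1 protein was in the nucleus.

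Tbx3, on chromosome 5 at 119670669 to 119684724, was the steadiest of the 10 in control AAV, at 1485, 1477, 1518 and 1568 CPM. In nANGPTL4 AAV it was at 1248, 1339, 1531 and 1298 CPM, so that 3 libraries lay below all controls and library 3 lay among them. The log2 fold change of Tbx3 was -0.16 with an SE of 0.06 (edgeR adjusted p = 0.227). Its antisense neighbours Tbx3os1, at 0.19, and Tbx3os2, at 0.13, had positive log2 fold changes and were not called (edgeR adjusted p = 0.436 and 0.729).

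**Figure D3:**
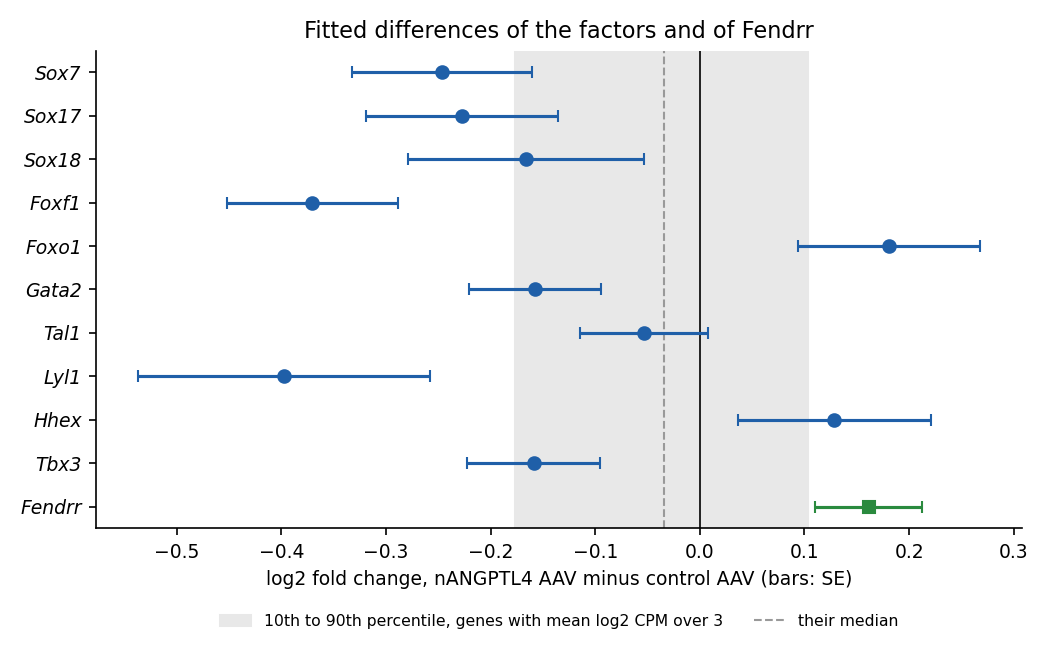
Log2 fold change of each factor and of Fendrr (horizontal axis, nANGPTL4 AAV minus control AAV) with its SE as the bar. The grey band runs from the 10th to the 90th percentile of genes with a mean log2 CPM over 3, from -0.176 to 0.103, and Foxf1, at -0.37, and Lyl1, at -0.40, lie farthest below it. Lyl1 is the only factor not over that level, and its SE is 0.14 against a median of 0.059 for genes over it.

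Among replicates several of the factors moved together. After each group's mean was removed, log2 CPM over the 8 libraries correlated with r over 0.8 in 3 of the 45 pairs, Sox18 with Lyl1 (r = 0.93), Sox7 with Sox18 (r = 0.91) and Sox7 with Lyl1 (r = 0.88). Sox17 correlated with Sox18 at r = 0.72 and with Sox7 at r = 0.64. Foxf1 correlated with Hhex at r = 0.77 and ran against the SOXF factors, at r = -0.90 with Sox18, -0.78 with Sox7 and -0.68 with Sox17. The median over all pairs was -0.14. These are descriptions over 8 points that share library preparation and depth. Control library 1 was low in 4 of them, with Lyl1 0.39, Sox18 0.28, Sox7 0.23 and Sox17 0.22 log2 units below their group means. The deviations of Sox18 and Lyl1 were also negative in nANGPTL4 libraries 1 and 4 and positive in library 2. The transcripts of these 2 genes were the richest in G and C of the 10, at 60.9% and 62.6%, while the longest transcripts of the others had 48.5% to 58.2%. Sox7, which moved with both, had 51.0%. Gata2, at 58.2%, correlated with Sox18 at r = 0.14 and with Lyl1 at r = -0.02. The part of base composition in these deviations was not tested.

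**Figure D4:**
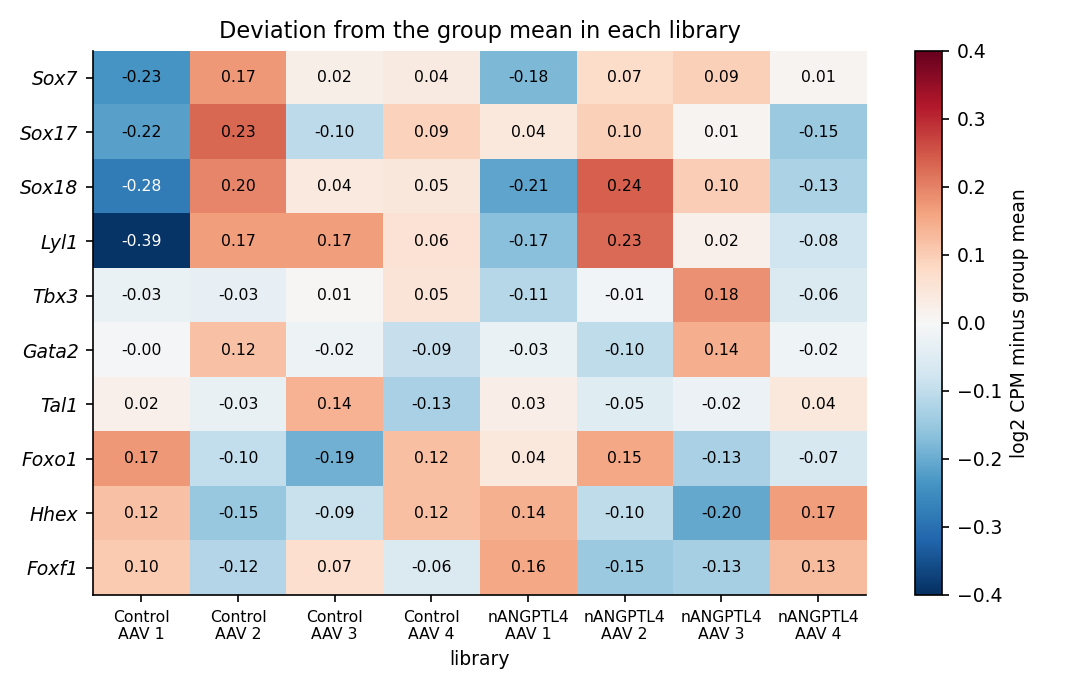
Deviation of log2 CPM from the group mean for each factor (rows) in each library (columns), with its value printed in the cell and red for above and blue for below the mean. Sox7, Sox18 and Lyl1 are blue together in library 1 of both groups, where Foxf1 and Hhex are red.

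By the same measure, the gene most like a factor among 8877 others with a mean log2 CPM of at least 3 was Col18a1 for Sox17 (r = 0.99), Rmnd5b for Sox18 (r = 0.98), Ppp1cc for Foxf1 (r = 0.98) and Micu2 for Foxo1 (r = 0.99). It was Hps3 for Gata2 (r = 0.97), Sorbs3 for Tal1 (r = 0.97), Fam160b2 for Lyl1 (r = 0.98), Rnf114 for Hhex (r = 0.97) and Tent2 for Tbx3 (r = 0.97). Each is the highest value over all these candidates and carries no test. None of these 9 genes was called between the groups.

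Genes reported in the field to lie downstream of the SOXF factors were mostly on the negative side. Of 24 tested, 22 had negative values, with a median of -0.12 (-0.08 with library size only and -0.08 without control library 2), where 62.5% of the more abundant genes were negative. Of the 24, 9 had an unadjusted p under 0.05, all lower, where 18.2% of the more abundant genes reached it lower. Of these, 1 was called, the arterial connexin Gja5 (edgeR adjusted p = 0.0317). Gja5 was at 96.9 ± 8.31 and 64.0 ± 4.30 CPM (SD, n = 4 each), and the log2 fold change was -0.60 (SE 0.07). The receptor Notch1 was at -0.27, the scavenger receptor Ackr3 at -0.30 and the VEGF receptor Flt1 at -0.15, none of them called (edgeR adjusted p = 0.0674, 0.0988 and 0.114). Arterial markers, to which Gja5 belongs, were negative in 13 of 14 with a median of -0.24, and venous markers in 11 of 11 with a median of -0.24. Endothelial markers, Sox18 among them, were negative in 14 of 16 with a median of -0.05. General capillary markers were negative in 8 of 10 with a median of -0.12, while aerocyte markers were positive in 9 of 12. A negative lean was therefore not particular to the SOXF list. The arterial sum was 4060.1 to 4707 CPM in control AAV and 3627 to 3794 CPM in nANGPTL4 AAV. The venous sum was 3638 to 3827 and 2868 to 3277 CPM in the same order. Sox17 is itself on the arterial list and is counted in its sum and among its negative values. Without Sox17 the arterial sum was 3501.8 to 4002.5 CPM in control AAV and 3162.6 to 3242.9 CPM in nANGPTL4 AAV, still without overlap. The part of arterial and venous markers in the SOXF list was not tested.

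Of 23 genes reported downstream of FOXF1, 19 had negative values, where 62.5% of the more abundant genes were negative. The median of the 23 was -0.08 (-0.04 with library size only and -0.05 without control library 2), and 0 were called in edgeR. An unadjusted p under 0.05 was reached by 8, 7 of them lower, against 17.6% of all genes. Of the more abundant genes 18.2% reached it lower. Tmem100, a membrane protein of lung endothelium, was at 2009.6 ± 119 and 1726 ± 52.6 CPM (SD, n = 4 each), and the log2 fold change was -0.22 (edgeR adjusted p = 0.0876) with no overlap. Itgb1, the integrin beta subunit, was at -0.14 (edgeR adjusted p = 0.170). Fendrr, in the other direction, and Tbx3 belong to this list too. The SOXF and FOXF1 lists overlap, sharing among others Kdr, Tek, Cdh5 and Flt1, and Kdr had a log2 fold change of -0.05 (edgeR adjusted p = 0.794).

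Genes reported downstream of FOXO1 leaned the other way, with 23 of 35 positive, a median of 0.06 (0.10 with library size only, 0.12 without control library 1 and 0.03 without control library 2) and 0 called in edgeR. At an unadjusted p under 0.05 there were 7, 5 higher and 2 lower, where 7.35% of all genes reached it higher and 10.3% lower. Fbxo32, a ubiquitin ligase subunit induced by FOXO factors in muscle, was at 10.4 ± 1.87 and 14.7 ± 1.86 CPM (SD, n = 4 each), and the log2 fold change was 0.50 (edgeR adjusted p = 0.106). Gadd45a, a stress response gene, was at 0.25 and Insr, the insulin receptor, at 0.16, both with no overlap between groups and neither called (edgeR adjusted p = 0.121 and 0.136). Nos3, the endothelial nitric oxide synthase, was at -0.16 (edgeR adjusted p = 0.169).

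The 28 kinases and partners that act on FOXO1 had a median of -0.06 (-0.01 under library-size scaling and -0.02 without nANGPTL4 library 2), with 19 negative, 8 at an unadjusted p under 0.05 (3 higher, 5 lower) and 0 called in edgeR. The smallest p were those of the kinases Stk4 at 0.21, Sgk3 at -0.15 and Pik3cb at 0.21 and of the 14-3-3 protein Ywhae at -0.12. Their edgeR adjusted p-values lay between 0.110 and 0.190. Akt1 was at 0.01 (SE 0.23), with 178 ± 11.8 and 179 ± 80.1 CPM (SD, n = 4 each), so its spread in nANGPTL4 AAV was large.

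The complex partners of TAL1, LYL1 and GATA2 were near the middle of all genes. Of 22 tested, 12 had negative values, 3 had an unadjusted p under 0.05, all lower, and 0 were called in edgeR. The median was -0.04, and it was 0.01 with library size only and 0.02 without control library 2. Lmo2, the bridge protein, was at 253 and 255 CPM, and the E protein Tcf4 at 423 and 430 CPM. Cbfb, the partner of RUNX factors, had the smallest p, at -0.28 (SE 0.06, edgeR adjusted p = 0.0794), with no overlap.

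Of 32 genes reported downstream of GATA2, TAL1 or LYL1, 22 had negative values, with a median of -0.03 that was 0.01 with library size only and -0.02 without nANGPTL4 library 1. Fli1, an ETS factor of endothelium and blood, was the only one called, at 172 ± 14.9 and 119 ± 8.28 CPM (SD, n = 4 each), and the log2 fold change was -0.53 with an SE of 0.07 (edgeR adjusted p = 0.0369). Vwf, the coagulation protein, was at -0.27 (edgeR adjusted p = 0.0783). Hhex, itself one of the 10, is also on this list.

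The relatives of the factors held no call. In the SOX family outside SOXF 0 of 12 were called in edgeR, 9 were positive with a median of 0.06, and 3 had an unadjusted p under 0.05. Sox13, a SOXD factor, was at 684 ± 40.5 and 554 ± 48.0 CPM (SD, n = 4 each), and the log2 fold change was -0.30 with an SE of 0.07 (edgeR adjusted p = 0.0756). Its groups did not overlap, while Sox4 was at 0.29 (edgeR adjusted p = 0.255). The family median was 0.11 with library size only and ran from -0.05 to 0.18 with 1 library left out, negative without nANGPTL4 library 3.

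In the FOX family outside Foxf1 and Foxo1, 0 of 23 were called in edgeR, 13 were negative with a median of -0.07 (-0.02 with library size only and -0.03 without control library 3), and 6 had an unadjusted p under 0.05. Foxn2 at -0.36 and Foxj3 at -0.19 were lower and Foxp1 at 0.16 was higher in each nANGPTL4 library than in each control library, with edgeR adjusted p-values of 0.115, 0.123 and 0.131. Foxo3, a paralog of Foxo1, was at -0.09 (edgeR adjusted p = 0.678).

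Of the T-box genes 5 besides Tbx3 were tested, 4 of them positive, with 0 called and 0 at an unadjusted p under 0.05 in edgeR. Their median was 0.27, and it was 0.14 in limma-voom, 0.03 without nANGPTL4 library 2 and 0.39 without nANGPTL4 library 3. Tbx2, at 617 and 674 CPM in the 2 groups, was the only abundant one, and Tbx6, at 3.96 and 5.08 CPM, had the smallest p (edgeR adjusted p = 0.308).

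Among 38 other endothelial transcription factors the median was -0.03 (0.01 with library size only, and -0.07 to -0.01 with 1 library left out), and 5 had an unadjusted p under 0.05, all lower. Fli1 was the only one called. Nfatc1 was at -0.29, the signal inhibitor Smad7 at -0.30 and the Notch target Hes1 at -0.21 (edgeR adjusted p = 0.0952, 0.120 and 0.246). The negative values of Foxf1 and the SOXF factors were thus farther from 0 than the median of this group, a difference that was not tested. Within the group, Fli1 at -0.53, Smad7 and Nfatc1 were each more negative than any SOXF factor. Arterial and venous markers, with a median of -0.24 each, also lay farther from 0 than Sox17 at -0.23 and Sox18 at -0.17. Summed general capillary markers were at 18631 to 20495 CPM in control AAV and 16874 to 18598 CPM in nANGPTL4 AAV, lower in each nANGPTL4 library. The closest, control library 3 and nANGPTL4 library 2, had scaling factors of 0.9942 and 1.023, so this narrow separation depends on the scaling. The median of these markers was -0.12, and -0.07 with library size only. Aerocyte markers summed to 14296 to 15816 and 14315 to 17141 CPM and lymphatic markers to 931 to 1383 and 960.05 to 1039.6 CPM, with overlap. Lung epithelial markers summed to 498 to 664 and 642 to 755 CPM, led by Hopx, and 1 of 18 was called higher, the secretory protein gene Scgb3a2 at 0.328 and 0.804 CPM (edgeR adjusted p = 0.0369). The part of these cells in the levels of the factors was not tested.

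**Figure D5:**
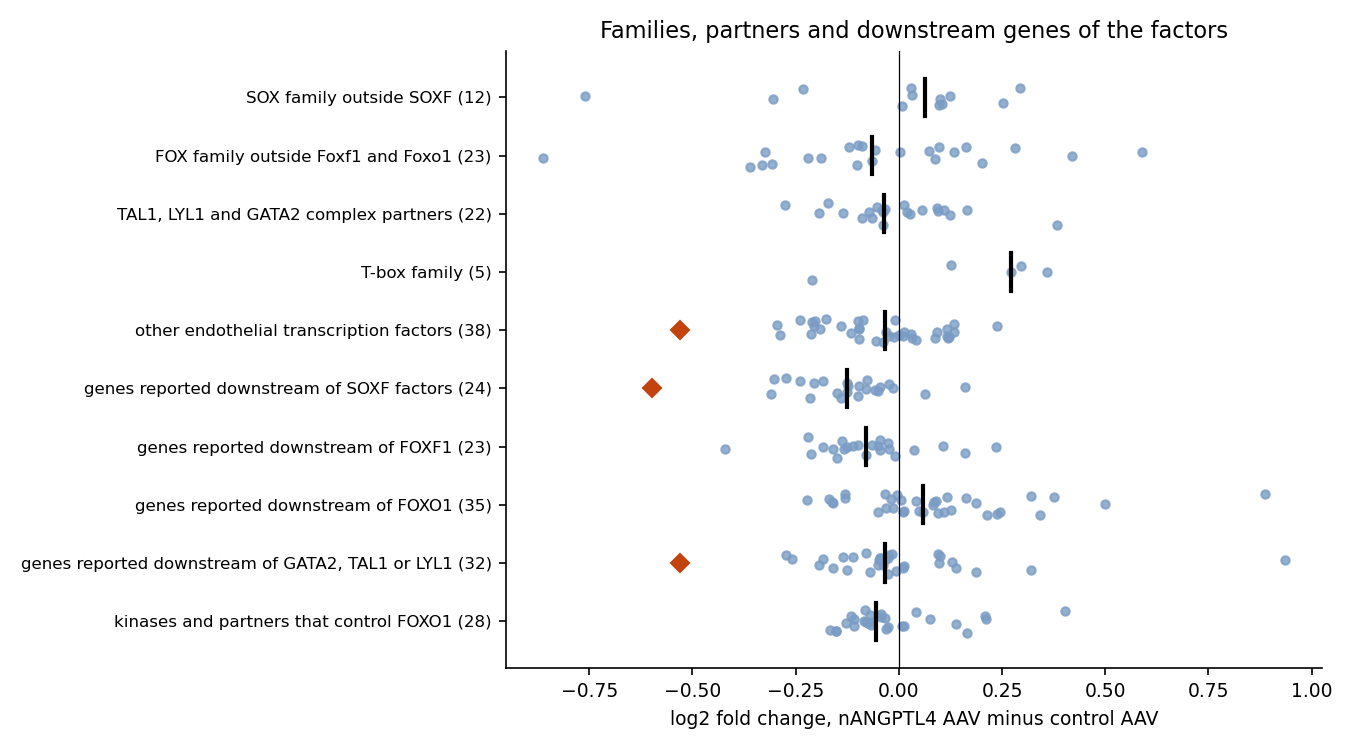
Log2 fold change (horizontal axis, nANGPTL4 AAV minus control AAV) of each tested gene in 10 lists, with the number tested in brackets, a black line at the median and orange diamonds for genes called in edgeR. The called genes are Gja5 once and Fli1 in 2 lists, and the SOXF downstream list, with a median of -0.12, has 2 of 24 genes above 0.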

How the data were processed

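Libraries were built with a low-input cDNA kit and a ChIP-seq kit, per the labels' protocols. The submitters' processing notes name mm10. The aligner, counting program, strand setting and annotation are not given in the sources used here. Each gene has a raw count in the table the authors deposited, and 0 sample columns were left unmapped. Of 31610 identifiers 31491 matched a symbol without version, and exons came from GENCODE M21. The main test was edgeR 4.0.16 (R 4.3.3) with filterByExpr (minimum count 10), TMM scaling and the quasi-likelihood F test on group alone, adjusted by the Benjamini-Hochberg method over 18874 genes. Log2 CPM used a prior count of 2. TMM factors were 0.969 to 0.9942 in control AAV libraries and 1.008 to 1.023 in nANGPTL4 AAV libraries. Alternatives were other scalings and filters, DESeq2 1.42.0 (adjusted p for 15654 genes), limma-voom 3.58.1, a robust fit, a replicate block and each library left out. The fits were tested on simulated data. The members and lists were chosen with earlier results of these data known. Named were the members, up to 4 genes per list with the smallest p plus any called, some of the 3 most abundant genes the rule allowed per marker list, the gene most like each member (that of Sox7 is not reported here), and neighbours. Other genes named were chosen after their values were seen. Libraries of a group differed beyond counting error (chi-square over degrees of freedom 21.0 to 60.8).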

Additional observations from a re-analysis of the deposited data

How the results depend on the processing

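Over 17 other settings the direction of 9 factors was kept, and Tal1 went from -0.05 to 0.0061 without control AAV library 3, with a range of -0.10 to 0.01 over left-out libraries. Foxf1 was the only factor called under any of them, by DESeq2 (log2 fold change -0.37), so the number of factors called went from 0 to 1. The count over all genes, 26, was 985 in DESeq2, 59 in the robust fit, 4 with upper quartile scaling or library size only, 1 with the stricter filter and 1 to 2 with a library left out. The median of the factors was -0.12 with upper quartile scaling, -0.12 with library size only and -0.20 in limma-voom, and -0.20 to -0.12 with a library left out. Groups did not overlap in 1 factor, and in 1 to 4 with a library left out: Sox7, Sox17 and Lyl1 joined Foxf1 without control AAV library 1, and Gata2 and Tbx3 without nANGPTL4 AAV library 3. Filters and tests leave CPM as it is, so this count was recomputed for scalings and left-out libraries only. Control AAV library 1 and nANGPTL4 AAV library 3 were the ones that had made these factors overlap. Any gene separates more easily with a library fewer, and the share over all genes was not taken for those settings. With the replicate block 6 genes were called and 0 factors, Foxf1 at -0.37 (adjusted p = 0.171). Same-numbered libraries correlated at 0.16, 0.14, -0.25 and -0.38 in their deviations, so the numbers were not taken as pairs. Relative to the endothelial markers, an alternative chosen after seeing the data, Tal1 was at 0.0054 and the other 9 kept their direction.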

Other observations

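Exoc6, an exocyst subunit gene downstream of Hhex on chromosome 19, had means of 83.4 ± 2.23 CPM with the control AAV and 75.9 ± 2.73 CPM with the nANGPTL4 AAV (SD, n = 4 each), lower in each library while Hhex was not (log2 fold change -0.14, edgeR adjusted p = 0.137). Pinx1, beside Sox7, was at -0.21 (edgeR adjusted p = 0.273), Trmt1, beside Lyl1, at -0.06 (edgeR adjusted p = 0.712) and Tcea2, beside Sox18, at 0.0021 (edgeR adjusted p = 0.992). Gm38708, a non-coding gene 3209 bases from Gata2, was at 16.5 and 16.9 CPM. Stil and Pdzk1ip1, on either side of Tal1, were each under 1 CPM.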
